A study of Mus musculus with 12 samples.

Results

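The replication-dependent histone genes encode the core histones H2A, H2B, H3 and H4, around which DNA is wound in the nucleosome, and the linker histone H1, which binds the DNA between nucleosomes. They were taken from the deposited table as the protein-coding genes whose symbol begins with Hist1h, Hist2h, Hist3h or Hist4h, which gave 67 of 54345 genes. There were 6 H1, 18 H2A, 18 H2B, 12 H3 and 13 H4 genes. Of these, 54 lie in the Hist1 cluster on chromosome 13, 10 in the Hist2 cluster on chromosome 3, 2 in the Hist3 cluster on chromosome 11, and 1, Hist4h4, lies on chromosome 6 (GRCm38 coordinates, as deposited).

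Poly(A) RNA was sequenced from H9c2(2-1) cells, a wild-type line derived from heart and labelled as myoblasts, in 12 libraries after 6 h of treatment. The study asked how DOX alters gene expression in these cells and how the additional agents modify this. The Unt group (3 libraries) was untreated, and the DOX group (3) received doxorubicin, an anthracycline chemotherapeutic. The D_DXZ group (3) received doxorubicin with dexrazoxane, an iron chelator used for cardioprotection, and the D_MgHCF group (3) received doxorubicin with magnesium hexacyanoferrate nanocatalysts (MgHCF NCs). No group received DXZ or MgHCF without DOX, and the doses in the sequenced cells are not given in the sources used here. The labels name the organism as mouse and the genes carry mouse identifiers, whereas the paper describes the cells as rat, and how rat reads would be divided among near-identical mouse histone genes was not tested. The replicates are numbered in the labels without mention of separate cultures, so p-values measure only the spread between these libraries, which may be technical.

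In dividing cells these genes are transcribed mainly in S phase, when new DNA needs histones. Their messages end in a conserved stem-loop instead of a poly(A) tail. The stem-loop is bound by SLBP, and the message is cut behind it by a complex that holds the U7 snRNP with Lsm10 and Lsm11. Npat, a substrate of the cyclin E kinase, switches these genes on, and Hinfp does so at the H4 genes. A minor part of histone transcripts is polyadenylated at sites further downstream, and beads that carry poly-T retain mainly such transcripts. The values below therefore refer to the RNA retained by poly(A) selection, and the histone messages without a tail were not measured. In a bulk sample, fewer cells that express a gene and less RNA per cell cannot be told apart.

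The stem-loop is the sequence feature that defines the class, and it was searched in the GENCODE M21 transcripts, which include all 67 genes at the deposited GRCm38 coordinates. A 16-base stem-loop with complementary arms was present within 120 bases past the stop codon in 46 of the 67 genes, at a distance of 21 to 58 bases (median 31). For another 15 genes the annotated transcript ends within 20 bases of the stop codon, so this region is not annotated. In the remaining 6 genes (Hist1h1a, Hist1h2bc, Hist1h2bq, Hist1h2br, Hist2h2be and Hist2h3b) it was not found in that window of the transcript, but for Hist1h1a and Hist2h3b the annotation ends 48 and 37 bases past the stop codon, so most of the window is not annotated there. The annotated transcript of Hist1h2bc has 2 exons. Hist1h2bq and Hist1h2br each have transcripts of 3, 2 and 1 exons, and the transcript of 1 exon ends 0 bases past the stop codon. Any sequence spliced out behind the stop codon was not searched in these genes. The following windows of 30 bases are given for genes described below, in the sense of the message, with the stem-loop in capitals. They are chr13:22040959-22040988 (minus strand) for Hist1h4i, chr13:21735430-21735459 (plus) for Hist1h4j, chr13:23739505-23739534 (plus) for Hist1h1c, chr13:23570661-23570690 (minus) for Hist1h2ae, chr13:23542921-23542950 (minus) for Hist1h2bh and chr13:23535882-23535911 (plus) for Hist1h3g.
Hist1h4i: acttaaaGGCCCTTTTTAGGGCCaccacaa
Hist1h4j: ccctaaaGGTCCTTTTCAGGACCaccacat
Hist1h1c: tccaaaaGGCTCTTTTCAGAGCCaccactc
Hist1h2ae: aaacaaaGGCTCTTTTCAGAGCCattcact
Hist1h2bh: acccaaaGGCTCTTTTCAGAGCCactcaag
Hist1h3g: ctttaaaGGCTCTTCTTAGAGCCacccatc
The arms of the stem differed between H4 and the other types. All 12 H4 stem-loops had GGCCCT or GGTCCT as the first arm. The 34 stem-loops of the other types had GGCTCT, with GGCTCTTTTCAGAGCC in 26 genes and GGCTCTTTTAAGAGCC in 6. The whole stem-loop of Hist1h4i was shared only with Hist2h4 among the 46 genes. The annotated transcript continued past the stem-loop by 330 bases in Hist1h4i, 840 bases in Hist1h1c and 1214 bases in Hist1h2bh. The 24 genes with more than 200 annotated bases past the stop codon held 82.0% of the reads on histone genes. Most of this share, 61.8% of the reads, came from 3 of them, Hist1h4i, Hist1h1c and Hist1h2bc. Per length the median of the mean FPKM was 0.579 in these 24 genes and 0.745 in the other 43.

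The values are FPKM, that is fragments per kilobase of gene after a scaling of the libraries. The reads on genes, recovered from the FPKM, numbered 17724150 to 18509705 per Unt library and 17882186 to 19365119 per DOX library. The D_DXZ libraries had 17300819 to 18107499 and the D_MgHCF libraries 16626514 to 17773368. The histone genes received few of them. There were 1092, 994 and 1094 reads in Unt, 2251, 2385 and 2189 in DOX, 2395, 2664 and 2550 in D_DXZ, and 2836, 2462 and 1213 in D_MgHCF replicates 1, 2 and 3. In Unt this was a share of 0.00584% ± 0.000205 of the reads on genes (SD, n = 3, as for the groups that follow). In DOX it was 0.0121% ± 0.000455, in D_DXZ 0.0143% ± 0.00109 and in D_MgHCF 0.0126% ± 0.00514. All libraries of DOX and D_DXZ lay above all libraries of Unt. Of D_MgHCF, replicates 1 and 2 lay at 0.0171% and 0.0139%, and replicate 3 at 0.00700% (95% Wilson interval 0.00662% to 0.00741%, counting error only). This library stood apart in the whole table as well. Its Pearson correlations of log2(FPKM + 1) with D_MgHCF replicates 1 and 2 were 0.942 and 0.964, whereas all other pairs within a group reached at least 0.984. The counts and the called values of histone genes in D_MgHCF are therefore given with and without it in most cases.

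The FPKM are not scaled to the summed reads of each library. The scale used, divided by the summed reads, was 1.32 to 1.38 for the Unt libraries and 1.26 to 1.43 for D_MgHCF, but 0.647 to 0.784 for DOX and 0.747 to 0.892 for D_DXZ. With this scaling, the summed FPKM of the histone genes was 43.9 ± 1.49 (SD, n = 3) in Unt, 213.3 ± 29.0 in DOX, 202.7 ± 33.0 in D_DXZ and 103.3 ± 58.0 in D_MgHCF (SD, n = 3 each), a larger contrast of DOX with Unt than in the share of reads. With the summed reads as the scale, the median log2 fold change of DOX against Unt over the 11517 genes with a mean FPKM of at least 1 moved from 0.05 to -0.69, and with TPM (FPKM divided by their sum in the library) it moved to -1.18. Which scale stands for equal RNA per cell was not tested. For this reason, the raw reads are given beside the FPKM of most histone genes named.

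**Figure D1:**
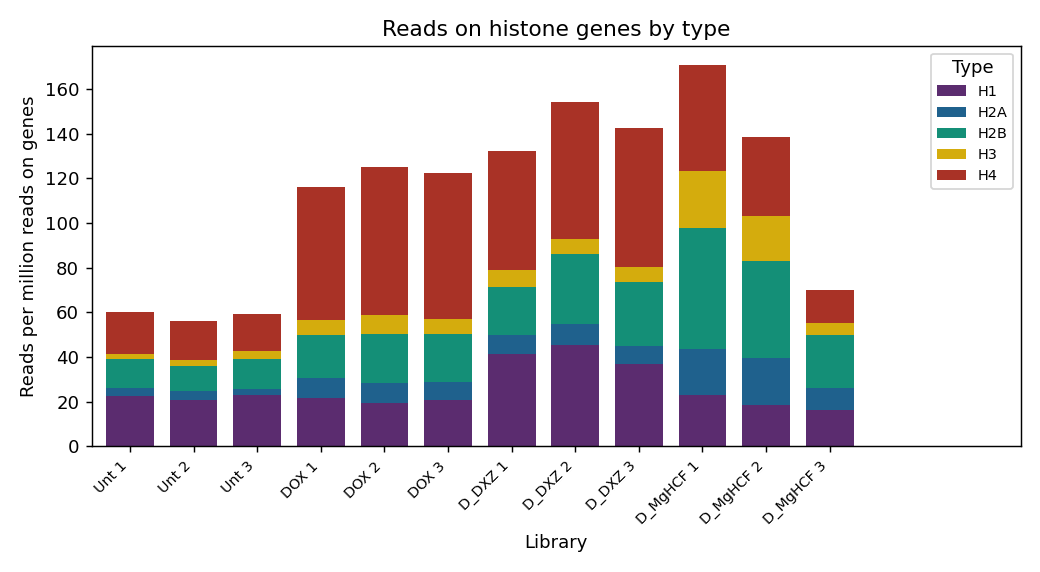
Reads on histone genes per 1000000 reads on genes in each library (bars, starting at 0), divided by histone type. The H4 part is 17.5 ± 0.975 (SD, n = 3) in Unt and 64.0 ± 3.55 in DOX, the H1 part is 22 ± 1.18 and 20.6 ± 1.17, and D_MgHCF replicate 3 has a lower bar than the other D_MgHCF libraries.

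The labelled cell type was checked with its markers. Of 16 muscle and myoblast markers, only Gata4 had an FPKM of at least 1 in every library, and 10 had a mean FPKM under 0.1, among them the myogenic regulators Myod1, Myf5, Myog and Myf6 and the cardiac myosins Myh6 and Myh7. Of 6 mesenchymal and fibroblast markers, Vim, Col1a1, Col1a2 and S100a4 reached an FPKM of 1 in every library. The summed FPKM of the muscle list, led by Gata4, was 12.9 ± 0.566 in Unt, 5.97 ± 1.79 in DOX, 6.23 ± 0.622 in D_DXZ and 23.7 ± 4.91 in D_MgHCF (SD, n = 3 each). That of the mesenchymal list, led by Vim, was 296.9 ± 28.0, 1230 ± 176, 935 ± 113 and 164 ± 48.5. That of 3 neural markers, almost all from Tubb3, was 8.89 ± 0.462, 11.5 ± 1.95, 8.69 ± 3.02 and 29.8 ± 2.17. Epithelial, endothelial and blood markers summed to at most 1.63, 0.989 and 5.36 FPKM in any library, with Epcam, Cdh1, Cdh5, Kdr, Ptprc and Hbb-bs at a mean under 0.1. The D_MgHCF libraries had a read on 25456, 25213 and 23368 genes in replicates 1, 2 and 3, compared with 18530 to 20660 genes in the other 9 libraries. The part of these differences in the histone results was not tested.

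Most histone genes had low values. A total of 59 of the 67 genes had an FPKM above 0 in at least 3 libraries and were tested, and 1 gene, Hist1h4b, did not reach this. The other 7 (Hist1h2aa, Hist1h2ba, Hist2h2aa1, Hist2h2aa2, Hist2h2bb, Hist2h3b and Hist2h3c1) had no read in any library. Of these, Hist2h2aa1, Hist2h2aa2, Hist2h2bb, Hist2h3b and Hist2h3c1 match an overlapping gene model at 100% identity, over 586, 528, 381, 488 and 1825 bases, so their 0 cannot be told apart from the assignment of shared reads to another gene. For Hist1h2aa and Hist1h2ba, without a near-identical gene, a count of 0 allows up to 3 reads, which at their lengths of 390 and 384 bases is an FPKM of 0.302 to 0.665 and of 0.307 to 0.675, depending on the library. These limits cover counting error only and leave out reads of rat cells that may not align to the mouse gene. Hist1h2aa is overlapped by Gm44344 on the opposite strand, and how such reads were counted is not described, so its limit is uncertain. Hist1h2aa and Hist1h2ba encode histones of the testis, as does Hist1h1t, whose FPKM did not exceed 0.129. The median of the mean FPKM was 0.662, and 23 genes had a mean FPKM of at least 1. Reads were concentrated in a few genes. Hist1h4i, an H4 gene, held 31.8% of the 24125 reads on histone genes, and together with the H1 gene Hist1h1c and the H2B gene Hist1h2bc it held 61.8%. The 10 most covered genes held 77%.

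**Figure D2:**
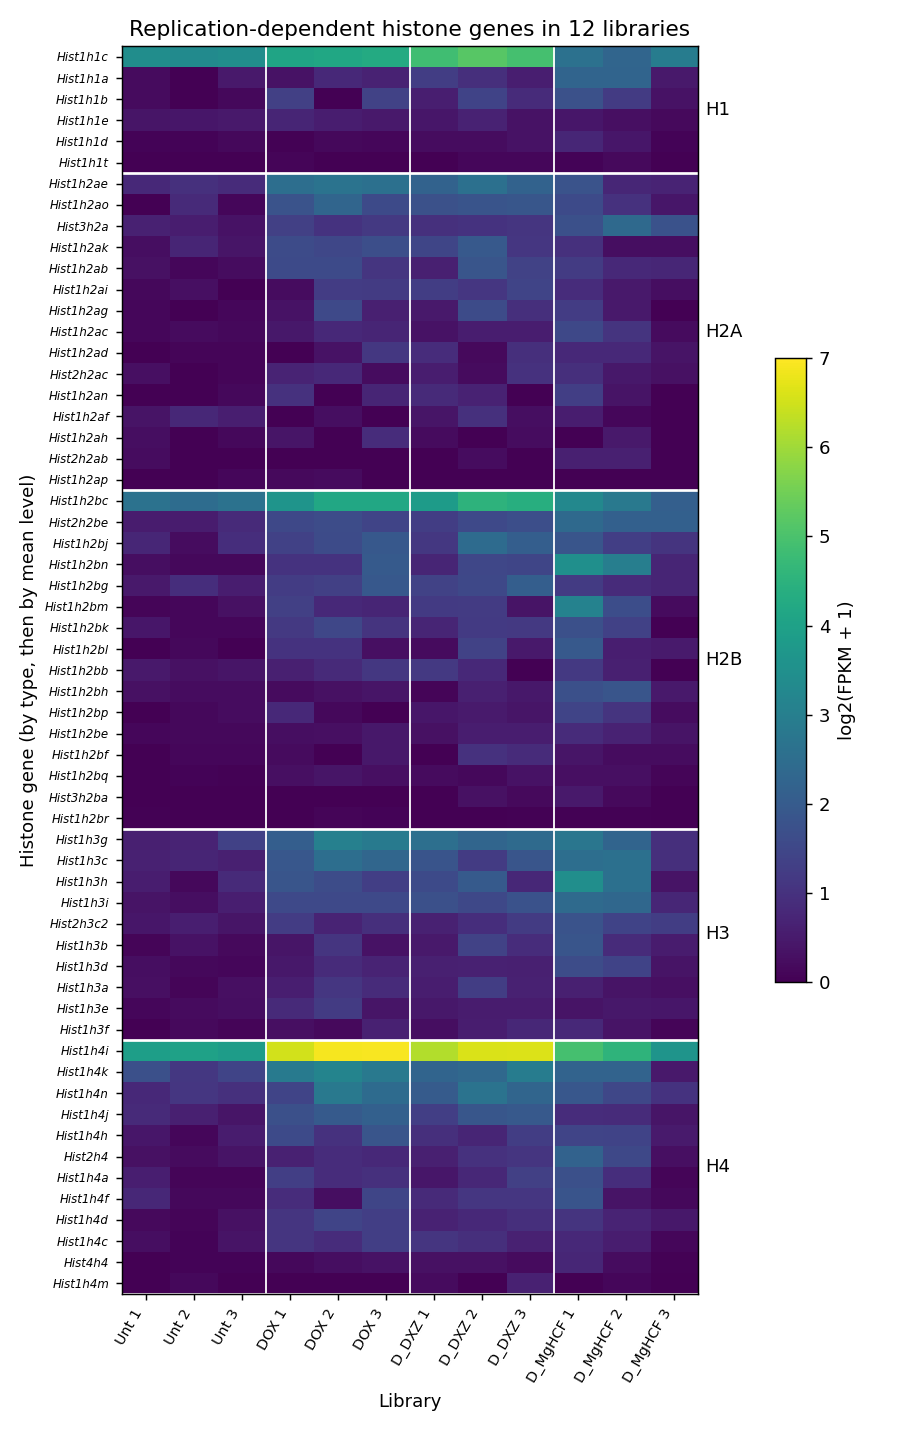
Log2(FPKM + 1) of the 59 histone genes tested (rows, grouped by type and ordered by mean level) in the 12 libraries (columns, grouped by treatment). Hist1h4i, Hist1h1c and Hist1h2bc are the brightest rows, most other rows stay under 2, and several H2B and H3 rows are brighter in D_MgHCF replicates 1 and 2 than in replicate 3.

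DOX treatment was first compared with Unt. Of the 59 genes, 24 (40.7%) were higher in DOX and 0 were lower in limma, where an adjusted p under 0.05 (Benjamini-Hochberg) counted as a call, compared with 18.6% higher and 19.9% lower among all 25044 genes tested. The median log2 fold change was 0.62 for the histone genes and 0 for all genes. Genes that are high in one group can pass the filter through that group alone, so these counts describe the genes that passed. With the deposited scaling every type had genes called, with 1 of 6 H1, 6 of 15 H2A, 5 of 16 H2B, 5 of 10 H3 and 7 of 12 H4 genes higher, and type medians of 0.27, 0.53, 0.59, 0.62 and 0.96. Without Hist1h4i, Hist1h1c and Hist1h2bc, 21 of 56 genes were higher and the median was 0.57. At an unadjusted p under 0.05, 1 gene was lower (22.7% of all genes), and voom on the recovered reads called 0 lower (19.7% of all genes). Voom was run with the deposited scaling, so it cannot test the scale. With quantile normalization 26 genes were higher and 0 lower (16.7% and 17.3% of all genes). Scales that rest on totals gave fewer calls. When the libraries were scaled by the summed reads 8 of the 59 genes were higher (8.29% of all genes) and with TPM 7 (4.44% of all genes). With each of these scales 1 gene was lower (33.2% and 40.8% of all genes), the H2A gene Hist1h2af (named after its values were seen), which had 3, 7 and 5 reads in Unt and 0, 1 and 0 in DOX.

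Hist1h4i (ENSMUSG00000060639, chromosome 13 from 22040636 to 22041362) showed the largest rise. Its FPKM was 14.3, 15.0 and 13.7 in Unt and 91.4, 118 and 120.5 in DOX, with means of 14.3 ± 0.626 and 109.9 ± 16.1 (SD, n = 3 each). The underlying reads were 261, 261 and 244 in Unt and 1009, 1100 and 1013 in DOX. The groups were far apart on either scale, and the log2 fold change was 2.85 (standard error, SE, 0.28, limma adjusted p = 2.5e-05). It stayed called with the summed reads as the scale (1.92, adjusted p = 7.9e-05) and with TPM (1.55, adjusted p = 7.6e-05). The gene overlaps no other gene, but for 6 other genes a transcript matches it over 150 bases or more with an identity of at least 95%. Of these 5 are histone genes, with Hist1h4n as the longest match at 96.6% over 350 bases.

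The other H4 genes called were Hist1h4k, Hist1h4j, Hist1h4n, Hist1h4h, Hist1h4d and Hist1h4c, at far lower levels. Hist1h4k had an FPKM of 2.29, 1.2 and 1.71 in Unt (18, 9 and 13 reads) and of 6.33, 7.99 and 6.10 in DOX (30, 32 and 22 reads). The FPKM did not overlap between the groups, with a log2 fold change of 1.53 (SE 0.42, limma adjusted p = 0.013). Hist1h4k was not called with the summed reads (0.80, adjusted p = 0.21) or TPM (0.58, adjusted p = 0.49) as the scale. Hist1h4j, which has the GGTCCT stem, had 0.770, 0.539 and 0.317 in Unt and 2.30, 2.92 and 3.46 in DOX (log2 fold change 1.34, adjusted p = 0.00073), on 15, 10 and 6 reads against 27, 29 and 31. It was also called with the summed reads (0.80, adjusted p = 0.010) and with TPM (0.84, adjusted p = 0.046).

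The H1 gene Hist1h1c (ENSMUSG00000036181, chromosome 13 from 23738808 to 23740367) was the second gene by reads. It had an FPKM of 9.71, 9.12 and 9.81 in Unt and of 16, 17.0 and 18.6 in DOX, without overlap, and a log2 fold change of 0.78 (SE 0.16, limma adjusted p = 0.0021). Its reads, however, numbered 381, 341 and 374 in Unt and 378, 341 and 335 in DOX. With the summed reads as the scale the log2 fold change was -0.10 (adjusted p = 0.76), and with TPM it was -0.51 (adjusted p = 0.061), so the call and the direction of Hist1h1c rested on the scaling. This gene matches no other gene at 95% identity and overlaps none.

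Among the H2B genes, Hist1h2bc (ENSMUSG00000018102, chromosome 13 from 23684199 to 23692908) was the most abundant. Its FPKM was 5.26, 4.51 and 5.27 in Unt and 11.3, 17.2 and 17.2 in DOX, with 153, 125 and 149 reads against 198, 255 and 230. The log2 fold change was 1.41 (SE 0.29, limma adjusted p = 0.0023), and 0.56 with the summed reads as the scale (adjusted p = 0.091). Hist2h2be, another H2B gene (ENSMUSG00000068854, chromosome 3 from 96221119 to 96223738), had 0.455, 0.446 and 0.797 in Unt and 1.86, 2.11 and 1.72 in DOX, a log2 fold change of 0.89 (adjusted p = 0.00091). Its reads numbered 30, 28 and 51 in Unt and 74, 71 and 52 in DOX. It was called with the summed reads as the scale (0.41, adjusted p = 0.045) and not with TPM (0.31, adjusted p = 0.28). Hist1h2bc has 12 such near-identical histone genes, whereas Hist2h2be has none.

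Among the H2A genes, Hist1h2ae was highest, with an FPKM of 0.734, 0.948 and 0.814 in Unt and of 4.77, 5.31 and 5.03 in DOX. This is a log2 fold change of 1.72 (SE 0.26, limma adjusted p = 0.00032), on 13 to 16 reads per library in Unt and 41 to 51 in DOX. It stayed called with the summed reads as the scale (1.09, adjusted p = 0.0059) and with TPM (1.05, adjusted p = 0.018). Hist1h2ao had 0, 0.782 and 0.0853 in Unt and 2.47, 3.90 and 1.98 in DOX (log2 fold change 1.57, adjusted p = 0.0022), on at most 24 reads per library. Both groups of values were separate for each of these genes. Hist3h2a on chromosome 11 rose by less, from 0.574, 0.467 and 0.267 to 1.5, 1.05 and 1.25 (log2 fold change 0.66, adjusted p = 0.017). The reads were 31, 24 and 14 in Unt and 49, 29 and 31 in DOX, and it was not called with the summed reads or TPM as the scale. It overlaps Trim17 on the same strand and shares a stretch of 709 bases with it at 100% identity, so reads of these genes cannot be told apart there.

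Of the H3 genes, Hist1h3g and Hist1h3c were the most abundant. Hist1h3g had an FPKM of 0.525, 0.630 and 1.54 in Unt and of 3.23, 7.35 and 6.36 in DOX, with a log2 fold change of 1.79 (SE 0.43, limma adjusted p = 0.0063), on 7, 8 and 20 reads against 26, 50 and 39. Hist1h3c had 0.568, 0.662 and 0.520 in Unt and 2.72, 4.82 and 3.98 in DOX, with a log2 fold change of 1.59 (SE 0.40, adjusted p = 0.0082), on 9, 10 and 8 reads against 26, 39 and 29. Neither gene overlapped between the groups, but neither stayed called with the summed reads as the scale, at 1.16 and 1.02. For all 12 H3 genes a near-identical histone gene exists, so the division of reads among them is uncertain.

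**Figure D3:**
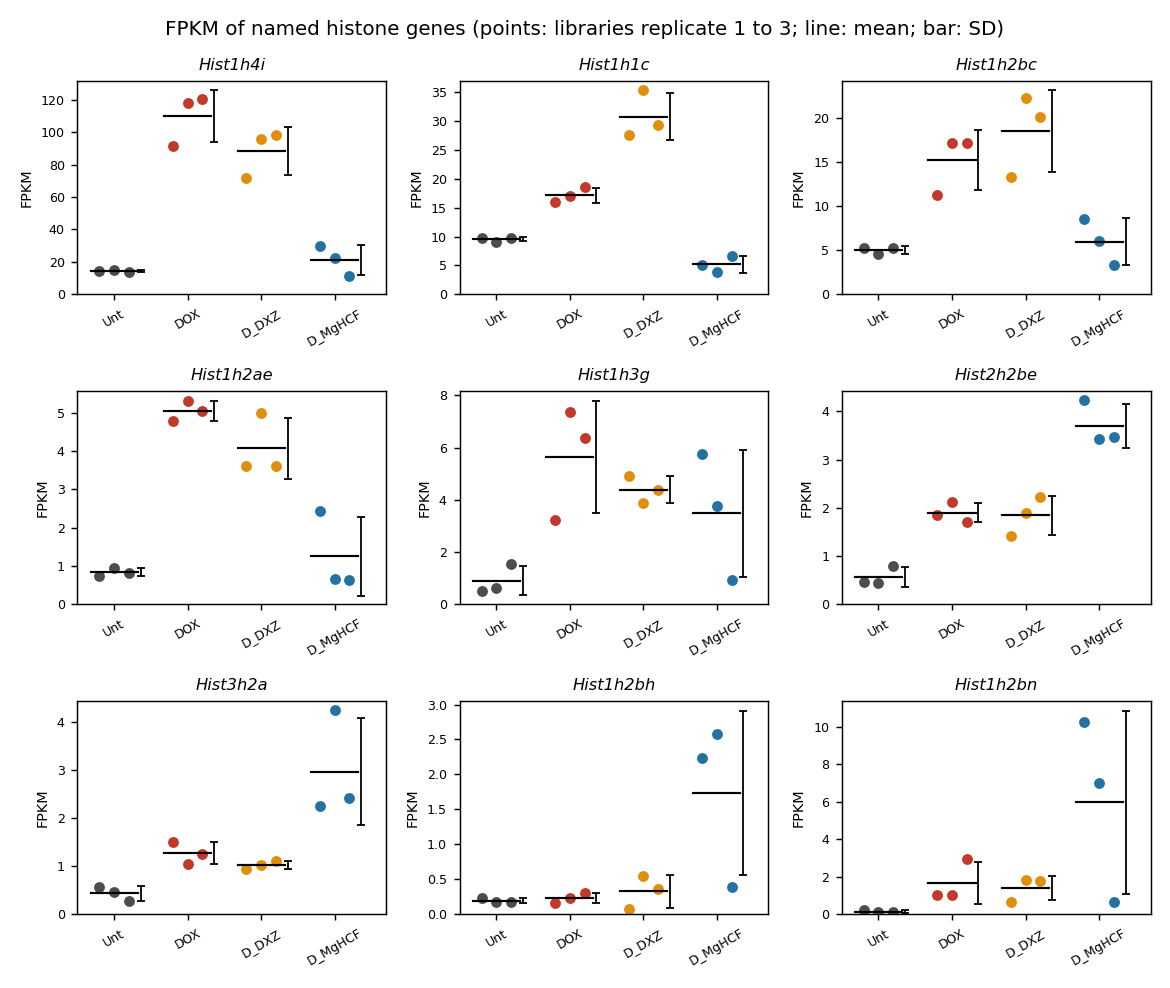
FPKM of 9 named histone genes in the 4 groups (points, 1 for each library in the order of replicates 1 to 3; line, mean; bar, SD; each vertical axis starts at 0). Hist1h4i rises from a mean of 14.3 in Unt to 109.9 in DOX, Hist1h1c reaches 30.8 in D_DXZ, Hist2h2be is highest in D_MgHCF at 3.71, and Hist1h2bh and Hist1h2bn are high in 2 of the 3 D_MgHCF libraries.

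In the D_DXZ group histone genes were again higher than in Unt, and no histone gene passed the test against DOX. Against Unt, 20 of the 59 genes (33.9%) were higher and 0 lower in D_DXZ, compared with 15.9% higher and 18.0% lower among all genes tested, and the median log2 fold change was 0.61 for the histone genes and 0 for all genes. The count of lower histone genes was also 0 at an unadjusted p under 0.05 (21.7% of all genes) and with voom (18.0%). Scaled by the summed reads 11 genes were higher (7.64% of all genes), and with TPM 6 (3.65%). Against DOX, no histone gene was called in either direction, and of all genes 0.0% were higher and 0.0% lower. At an unadjusted p under 0.05 there were 3 histone genes higher (4.56% of all genes) and 2 lower (4.97% of all genes) in D_DXZ than in DOX, and voom on the recovered reads called 0 in each direction (0.0% of all genes). The 3 were Hist1h1c, Hist1h2af and Hist1h4m, and the 2 were Hist1h2ap and Hist1h4d, named after their values were seen.

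Hist1h4i had an FPKM of 71.7, 96.1 and 98.1 in D_DXZ, which overlapped the DOX values, and its log2 fold change against DOX was -0.31 (SE 0.28, limma adjusted p = 0.78). Hist1h1c had 27.7, 35.4 and 29.3, above all DOX values, on 697, 724 and 611 reads compared with 335 to 378 in DOX. Its log2 fold change against DOX was 0.80 (SE 0.16, limma unadjusted p = 0.00042, adjusted p = 0.20), which did not pass, and against Unt it was 1.59 (adjusted p = 7.1e-05). With the summed reads as the scale the value against Unt was 0.87 (adjusted p = 0.0011). With TPM it was 0.48 and not called (adjusted p = 0.075). The H1 type as a whole had 41.2 ± 4.20 reads per 1000000 in D_DXZ and 20.6 ± 1.17 in DOX (SD, n = 3 each), most of them from Hist1h1c, whereas the H4 type had 58.9 ± 4.73 and 64.0 ± 3.55. Hist1h2bc had an FPKM of 13.3, 22.2 and 20.1 in D_DXZ, overlapping DOX, and Hist2h2be 1.42, 1.89 and 2.23.

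The D_MgHCF group was next compared with DOX. Of the 59 genes, 11 (18.6%) were lower and 5 (8.47%) were higher in limma at an adjusted p under 0.05, where 20.1% of all genes tested were lower and 31.4% were higher. The share of lower histone genes was thus near that of all genes. The median log2 fold change was -0.02 for the histone genes and 0.07 for all genes. The genes lower than in DOX included 5 of 12 H4 genes, 3 of 15 H2A genes, 2 of 6 H1 genes and 1 of 16 H2B genes, but 0 of 10 H3 genes. Without D_MgHCF replicate 3, 7 genes were lower (21.2% of all genes) and 17 higher (38.0%). With the summed reads as the scale 4 were lower (9.59%) and 12 higher (49.4%), and with TPM 3 were lower (6.75%) and 15 higher (53.9%). With quantile normalization 17 were lower (19.6%) and 1 higher (18.5%), so the balance of lower and higher genes turned with the scale. The comparisons share libraries (DOX against Unt and D_MgHCF against DOX use the same DOX libraries), so the values of each gene are only given side by side.

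Hist1h4i had an FPKM of 29.6, 22.4 and 11.4 in D_MgHCF (452, 414 and 204 reads), under every DOX library, and replicate 3 lay under the Unt values. The log2 fold change against DOX was -2.41 (SE 0.28, limma adjusted p = 5.5e-05), and it was -1.47 with the summed reads as the scale (adjusted p = 0.00043). Against Unt it was 0.44 (SE 0.28, adjusted p = 0.24). Without D_MgHCF replicate 3 the value against Unt was 0.80 and passed (adjusted p = 0.0037), and the value against DOX was -2.04 (adjusted p = 1.1e-05).

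Hist1h1c had an FPKM of 5.07, 3.83 and 6.71 in D_MgHCF, the lowest level of the 4 groups and without overlap with any of the other groups. The log2 fold change was -1.58 against DOX (SE 0.16, limma adjusted p = 2.3e-05), -2.38 against D_DXZ (adjusted p = 5.6e-06) and -0.79 against Unt (adjusted p = 0.0030). Scaled by the summed reads it was still lower than in DOX (-0.71, adjusted p = 0.0029) and in Unt (-0.80, adjusted p = 0.0023). Without D_MgHCF replicate 3 it was -1.75 against DOX and -0.96 against Unt, both called, and -2.55 against D_DXZ (adjusted p = 1.4e-06). With the deposited scaling it was the only histone gene called lower in D_MgHCF than in Unt.

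Hist1h2bc had 8.57, 6.05 and 3.31 in D_MgHCF, under every DOX library (log2 fold change -1.27, SE 0.29, limma adjusted p = 0.0039), and Hist1h2ae had 2.43, 0.670 and 0.637 (-1.52, SE 0.26, adjusted p = 0.00065). On the scale of the summed reads Hist1h2bc was no longer called, at -0.40 (adjusted p = 0.17). Hist1h2ae was still called there, at -0.87 (adjusted p = 0.016), and with TPM, at -0.91 (adjusted p = 0.028). Hist1h4k had 3.66, 3.65 and 0.392 in D_MgHCF and also lay under the DOX values (-1.32, SE 0.42, adjusted p = 0.023). Hist1h2ao had 1.98, 0.982 and 0.340, which overlapped the DOX values by replicate 1 (-0.89, adjusted p = 0.037). Hist1h4k and Hist1h2ao were not called with the summed reads or TPM as the scale. Without D_MgHCF replicate 3, Hist1h2bc (-0.96), Hist1h2ae (-1.33) and Hist1h4k (-0.74) were still called lower than in DOX, and Hist1h2ao was not (-0.61, adjusted p = 0.11).

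The 5 genes higher in D_MgHCF than in DOX were Hist2h2be, Hist3h2a, Hist1h2bh, Hist2h3c2 and Hist2h2ab, of which 3 belong to the Hist2 cluster. Hist2h2be had an FPKM of 4.23, 3.42 and 3.47 in D_MgHCF, above every library of the other groups (log2 fold change against DOX 0.70, SE 0.16, limma adjusted p = 0.0038, and against Unt 1.59, adjusted p = 6.9e-05). All 3 D_MgHCF libraries shared this level, with 233, 228 and 223 reads, and the call held without replicate 3 (0.73, adjusted p = 0.0038). Hist3h2a had 2.26, 4.25 and 2.41, likewise above all libraries of the other groups (log2 fold change against DOX 0.78, SE 0.19, adjusted p = 0.0061). Hist1h2bh was high in D_MgHCF replicates 1 and 2, at 2.24 and 2.57, and low in replicate 3, at 0.388, which nevertheless lay above all DOX libraries at 0.157, 0.232 and 0.309 (log2 fold change 1.04, SE 0.30, adjusted p = 0.014). Hist2h3c2 passed narrowly (0.53, adjusted p = 0.050) and matches Gm20634 at 100% identity over 666 bases. Hist2h2ab rested on 5, 6 and 0 reads in D_MgHCF and 0 in each DOX library, so that replicate 3 overlapped DOX, and it matches Gm15444 at 100% identity over 304 bases. Hist3h2a (0.87), Hist1h2bh (1.47), Hist2h3c2 (0.64) and Hist2h2ab were also called without replicate 3. The values moved with the scale. With the summed reads and TPM, which move the median of the 11517 genes with a mean FPKM of at least 1 from -0.09 to 0.67 and 0.99, all 5 were called, with values of 1.38 and 1.89 for Hist2h2be, 1.39 and 1.97 for Hist3h2a, 1.39 and 2.24 for Hist1h2bh, and 1.05 and 1.64 for Hist2h3c2. With quantile normalization only Hist1h2bh was called (0.77, adjusted p = 0.044), and Hist2h2be (0.32, adjusted p = 0.17) and Hist3h2a (0.39, adjusted p = 0.16) were not.

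Against D_DXZ, 8 genes (13.6%) were lower and 4 (6.78%) higher in D_MgHCF, compared with 19.0% lower and 29.4% higher among all genes. The 4 were Hist1h2bh, Hist3h2a, Hist2h2be and Hist2h3c2. Without D_MgHCF replicate 3, 6 genes were lower (20.4% of all genes) and 17 higher (36.2%). This balance turned with the scale too. It was 5 lower (9.51%) and 7 higher (45.6%) with summed reads, 3 lower (6.23%) and 10 higher (51.1%) with TPM, and 16 lower (19.3%) and 1 higher (18.3%) with quantile normalization.

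Against Unt, 14 genes (23.7%) were higher and 1 (1.69%) was lower in D_MgHCF, where 24.3% of all genes were higher and 15.7% lower. With the deposited scaling the share of histone genes that were higher was thus near that of all genes. The count of higher histone genes moved with the scale, to 24 with summed reads (29.3% of all genes) and with TPM (26.6%), and to 9 with quantile normalization (17.0%). It also moved with the model, to 22 with voom on the recovered reads (28.5%), which keeps the deposited scaling. The median log2 fold change was 0.49 for the histone genes and 0.05 for all genes, and the genes higher included 4 of 10 H3 and 5 of 16 H2B genes. Without D_MgHCF replicate 3 the number of genes higher was 32, with 33.4% of all genes. The largest rise was that of the H2B gene Hist1h2bn, at an FPKM of 0.209, 0.110 and 0.107 in Unt and of 10.2, 7.01 and 0.642 in D_MgHCF (log2 fold change 2.21, SE 0.60, limma adjusted p = 0.016). Its annotation has 381 bases and ends within 20 bases of the stop codon, with 2, 1 and 1 reads in Unt and 82, 68 and 6 in D_MgHCF. Hist1h1a, an H1 gene, had 0.161, 0 and 0.387 in Unt and 3.79, 3.76 and 0.385 in D_MgHCF, and a log2 fold change of 1.43 (SE 0.42, adjusted p = 0.022). In both genes replicates 1 and 2 lay far above replicate 3, and for Hist1h1a replicate 3 lay within the Unt range. Without replicate 3 the values were 3.06 for Hist1h2bn (adjusted p = 6.4e-05) and 2.03 for Hist1h1a (adjusted p = 6.2e-05).

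By type, the H3 genes summed to 25.6 and 19.9 reads per 1000000 in D_MgHCF replicates 1 and 2 and to 5.72 in replicate 3, compared with 2.86 ± 0.484 (SD, n = 3) in Unt and 7.36 ± 1.08 in DOX. The H2B genes summed to 54.4, 43.7 and 23.5, compared with 12.5 ± 1.19 in Unt and 20.6 ± 1.45 in DOX. The H4 genes showed another order, with 47.2, 35.6 and 14.7 in D_MgHCF and 64.0 ± 3.55 in DOX. The H2A genes summed to 20.3, 21 and 9.82 in D_MgHCF and the H1 genes to 23.2, 18.3 and 16.3. In each of the 5 types, D_MgHCF replicate 3 was the lowest library of its group.

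**Figure D4:**
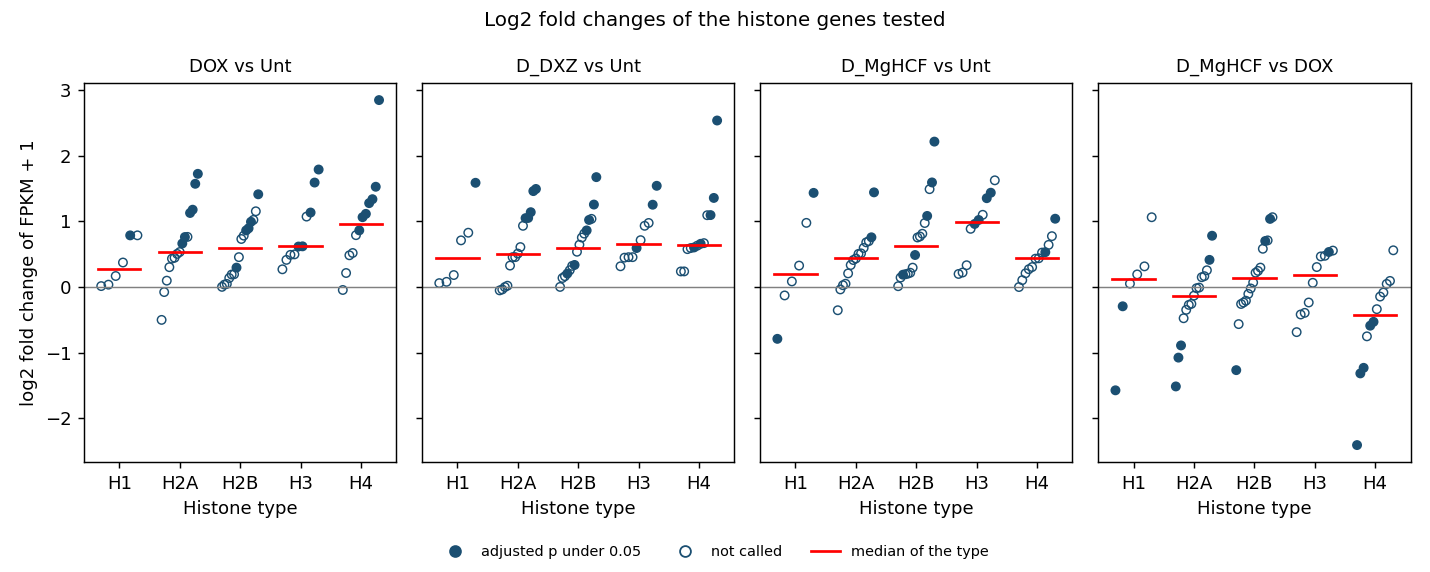
Log2 fold changes of FPKM + 1 of the 59 histone genes tested, by type, in 4 comparisons (filled points, adjusted p under 0.05 in limma; open points, not called; red line, median of the type). Against Unt the H4 median is 0.96 in DOX and 0.64 in D_DXZ, and in D_MgHCF against DOX the H4 median is -0.44, with Hist1h4i at -2.41.

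The genes that process or transcribe histone messages were examined next. Slbp, which binds the stem-loop, had an FPKM of 16.2, 15.1 and 13.5 in Unt and of 6.30, 6.52 and 5.19 in DOX, a log2 fold change of -1.19 (SE 0.20, limma adjusted p = 0.00063). In D_DXZ it was 9.38, 8.45 and 8.37, above every DOX library, but the difference of 0.48 did not pass (adjusted p = 0.49). In D_MgHCF it was 4.93, 8.32 and 10.1, with a log2 fold change of 0.28 against DOX (adjusted p = 0.25), and of 0.09 without D_MgHCF replicate 3 (adjusted p = 0.69). With the summed reads as the scale it was 1.12 (adjusted p = 0.0033) and with TPM 1.46 (adjusted p = 0.0019), both called, where the median of these 11517 genes lay at 0.67 and 0.99.

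Lsm10 and Lsm11, the subunits specific to the U7 snRNP, were both lower in DOX than in Unt. Lsm10 had 12.1, 13.6 and 17.2 in Unt, 2.65, 2.56 and 2.29 in DOX and 5.96, 14.2 and 17.7 in D_MgHCF. Its log2 fold change was -2.12 in DOX against Unt (SE 0.33, limma adjusted p = 0.00046) and 1.84 in D_MgHCF against DOX (SE 0.33, adjusted p = 0.0010). Lsm11 had a log2 fold change of -0.98 in DOX against Unt (adjusted p = 0.00019) and of 0.43 in D_MgHCF against DOX (adjusted p = 0.021). Eri1, the exonuclease that trims the end of histone messages, fell in DOX by 1.17 on the log2 scale (adjusted p = 8.7e-05), from 10.4, 10.6 and 10.3 to 4.19, 4.07 and 3.98. Zfp473, the zinc finger protein of the U7 complex, did not exceed an FPKM of 0.341 in any library.

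Among the transcription factors, Npat had an FPKM of 8.57, 7.46 and 5.79 in Unt, 2.00, 1.31 and 1.08 in DOX, 3.19, 2.06 and 1.71 in D_DXZ, and 3.44, 6.07 and 6.12 in D_MgHCF. The DOX values lay under all Unt values, with a log2 fold change of -1.75 (SE 0.24, limma adjusted p = 0.00020), and the D_MgHCF values lay above all DOX values (1.32, SE 0.24, adjusted p = 0.0011). Hinfp had 3.65, 3.82 and 3.58 in Unt, 2.39, 1.98 and 1.60 in DOX and 7.33, 8.82 and 5.17 in D_MgHCF, with log2 fold changes of -0.66 in DOX against Unt (adjusted p = 0.0089) and 1.42 in D_MgHCF against DOX (adjusted p = 6.1e-05). Casp8ap2, a protein of the histone locus body, had a log2 fold change of -0.44 in DOX against Unt that was not called (adjusted p = 0.074). The cyclins E, Ccne1 and Ccne2, were not called in DOX against Unt with the deposited scaling (-0.28 and -0.44). Ccne1 was called with the summed reads (-1.07, adjusted p = 0.0037) and TPM (-1.59, adjusted p = 0.00049), where the median of the 11517 genes lay at -0.69 and -1.18. Against DOX, Ccne1 was higher in D_MgHCF (0.88, adjusted p = 0.0049). The rises of Lsm10, Lsm11, Npat, Hinfp and Ccne1 in D_MgHCF against DOX were called without D_MgHCF replicate 3 as well, at 1.55, 0.44, 1.2, 1.60 and 1.03. The sizes moved with the scale, as did the median of the 11517 genes. In DOX against Unt, Hinfp was at -1.32 with the summed reads and -1.98 with TPM, Eri1 at -1.97 and -2.56, and Lsm11 at -1.59 and -2.36. In D_MgHCF against DOX, Hinfp was at 2.14 and 2.71, Lsm11 at 1.02 and 1.54, Npat at 1.98 and 2.61, and Lsm10 at 2.61 and 3.15. With quantile normalization, Hinfp was not called in DOX against Unt (-0.19, adjusted p = 0.50), and Lsm11 was not called in D_MgHCF against DOX (0.02, adjusted p = 0.95).

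The counts over the lists are read beside the shares of all genes tested, which were 18.6% higher and 19.9% lower in DOX against Unt, 15.9% and 18.0% in D_DXZ against Unt, 24.3% and 15.7% in D_MgHCF against Unt, and 31.4% and 20.1% in D_MgHCF against DOX. The 30 genes of 3′ end processing had 12 higher and 12 lower genes in DOX against Unt, 12 and 12 in D_DXZ against Unt, 1 and 10 in D_MgHCF against Unt, and 10 and 14 in D_MgHCF against DOX. The 10 genes of histone gene transcription, of which Npat and Casp8ap2 are also in the first list, had 0 higher and 5 lower in DOX against Unt and 6 higher and 0 lower in D_MgHCF against DOX, with medians of -0.54 and 0.69. The 22 histone chaperones, which carry histones to DNA, had 10 higher and 4 lower in DOX against Unt, and 3 higher and 14 lower in D_MgHCF against DOX. The 28 S phase genes had 16 higher and 6 lower in DOX against Unt and 6 higher and 19 lower in D_MgHCF against DOX. When the third D_MgHCF library was left out, 33.4% of all genes were higher and 18.7% lower against Unt, and 38.0% and 21.2% against DOX. The list of 3′ end processing then had 2 higher and 15 lower genes against Unt and 10 and 15 against DOX. Against DOX, the list of histone gene transcription had 7 higher and 1 lower, the chaperones 3 and 16, and the S phase genes 6 and 19. The list counts moved with the scale. In DOX against Unt, the S phase genes had 4 higher and 14 lower with the summed reads (8.29% and 33.2% of all genes), 1 and 18 with TPM (4.44% and 40.8%) and 5 and 12 with quantile normalization (16.7% and 17.3%). In the same order, the chaperones had 6 and 12, 2 and 15, and 3 and 6, so in both lists the balance of higher and lower genes turned. The list of 3′ end processing had 9 and 17, 4 and 19, and 8 and 10, and that of histone gene transcription 0 and 10, 0 and 10, and 0 and 3. In D_MgHCF against DOX, the S phase genes had 9 higher and 15 lower with the summed reads (49.4% and 9.59% of all genes), 10 and 8 with TPM (53.9% and 6.75%) and 8 and 11 with quantile normalization (18.5% and 19.6%). The chaperones had 9 and 8, 11 and 8, and 3 and 12 there, the list of 3′ end processing 14 and 11, 16 and 9, and 6 and 10, and that of histone gene transcription 9 and 0, 10 and 0, and 6 and 0. Pcna, the sliding clamp of DNA replication, was higher in DOX (log2 fold change 1.35, adjusted p = 0.0012 in limma), but its direction was lost with TPM and with quantile normalization.

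**Figure D5:**
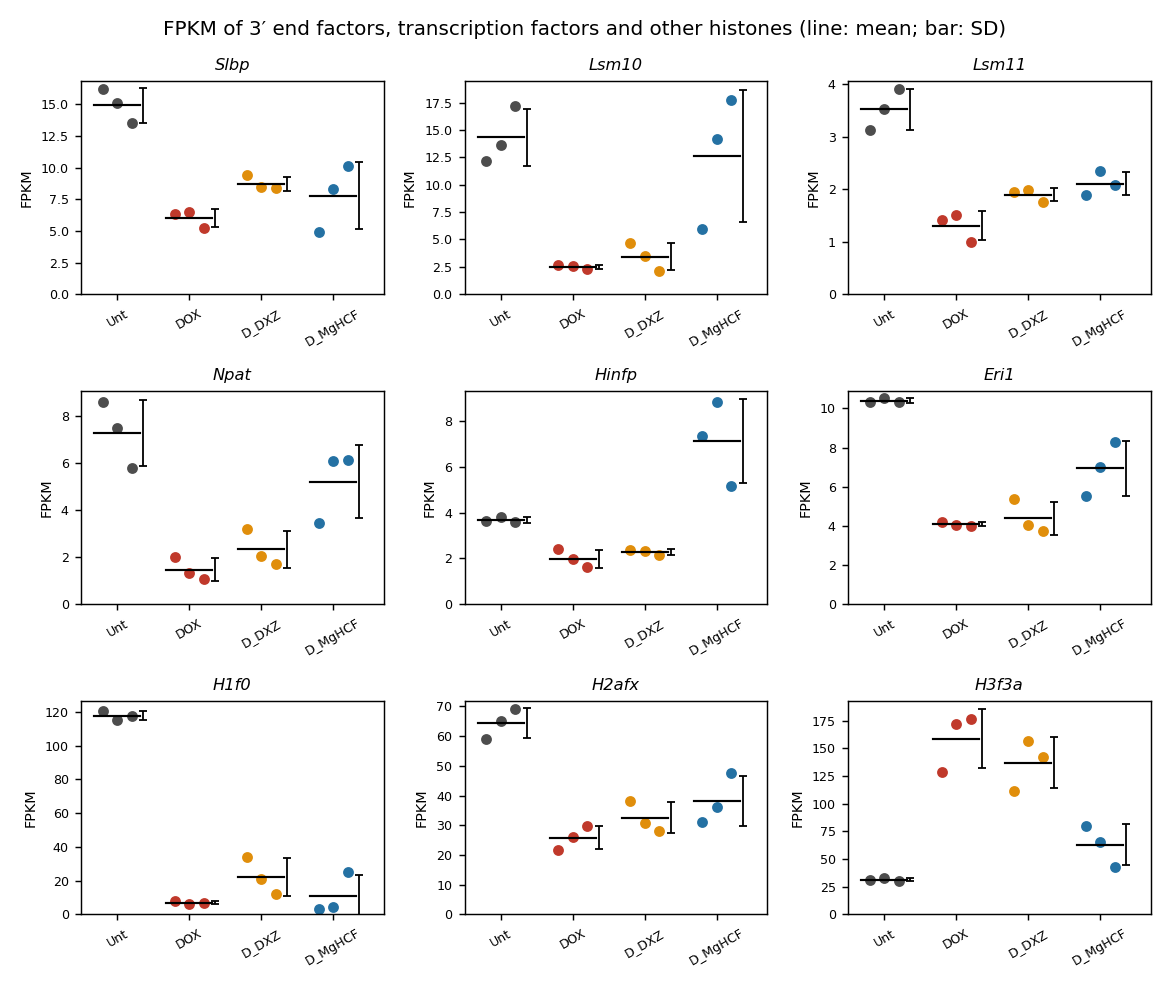
FPKM of 9 genes in the 4 groups: Slbp, Lsm10, Lsm11 and Eri1 of 3′ end processing, the transcription factors Npat and Hinfp, and the replication-independent histones H1f0, H2afx and H3f3a (points, libraries; line, mean; bar, SD, cut at 0 for H1f0 in D_MgHCF). All 9 panels separate DOX from Unt, with H1f0 at a mean of 118 in Unt and 6.82 in DOX.

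The replication-independent histones, most of which are made throughout the cell cycle from messages with a poly(A) tail, numbered 12 in the table. Of these, 8 were higher and 3 lower in DOX than in Unt, with a median of 0.87, compared with 18.6% higher and 19.9% lower among all genes. This count rested on the scaling. It was 4 higher and 5 lower with the summed reads (8.29% and 33.2% of all genes, list median -0.07), 1 and 7 with TPM (4.44% and 40.8%, median -0.48), and 3 and 3 with quantile normalization (16.7% and 17.3%, median -0.19). H3f3a, which encodes H3.3, had an FPKM of 30.9, 32.9 and 30.1 in Unt, 129, 172 and 176 in DOX and 80.1, 65.4 and 43.0 in D_MgHCF, a log2 fold change of 2.29 in DOX against Unt (SE 0.22, limma adjusted p = 2.2e-05) that was also called with the summed reads (1.36) and TPM (0.96) as the scale. H2afz and H3f3b were higher in DOX by 1.08 and 1.09, but their direction turned with TPM and with quantile normalization. H2afx was among the 3 genes that fell. Its transcript has a stem-loop, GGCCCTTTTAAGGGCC. Its FPKM fell from 59.1, 65.3 and 69.1 in Unt to 21.8, 26.0 and 29.6 in DOX (log2 fold change -1.30, adjusted p = 0.00014).

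H1f0, the linker histone H1.0 of cells that leave the cell cycle, fell most. Its FPKM was 120.5, 115 and 118 in Unt and 7.92, 6.03 and 6.52 in DOX, a log2 fold change of -3.93 (SE 0.59, limma adjusted p = 0.00034). It was 33.9, 20.6 and 11.9 in D_DXZ, above DOX in every library but not called (1.46, adjusted p = 0.49). In D_MgHCF it was 3.06, 4.36 and 25.1, so that replicates 1 and 2 lay under the DOX values and replicate 3 above them. Against Unt the log2 fold change in D_MgHCF was -3.84 (adjusted p = 0.00077), so the linker histone genes H1f0 and Hist1h1c were both lower in D_MgHCF than in Unt. Among the other H1 genes of the Hist1 cluster, only Hist1h1a was called against Unt, and it was higher (1.43). When D_MgHCF replicate 3 was left out, H1f0 was at -4.67 against Unt (adjusted p = 6.0e-06) and at -0.74 against DOX, where it was not called (adjusted p = 0.083).

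The promoters of the histone genes were read from RefSeq (GRCm38.p6, 250 bases before to 50 bases after each start), where 61 of the 67 genes were matched. The pentamer CCAAT, on either strand, was present in 52 of them (85.2%), compared with 37.4% of all 32817 promoters. It was present in all 6 H1, 17 H2A, 16 H2B and 10 H3 promoters, but in 3 of the 12 H4 promoters (25.0%). None of the motifs searched contains another. TATAAA, on either strand, was present in 57.4% of the histone promoters and 13.6% of all promoters. The octamer ATTTGCAT was present in 7 of 17 H2A (41.2%) and 6 of 16 H2B promoters (37.5%), in no promoter of another type and in 1.74% of all promoters. Windows of neighbouring genes that point in opposite directions can coincide, as 18 of the 61 windows overlapped another one on the other strand. The 120 bases before the start are given for the 3 genes whose values are described above and that stand for types with and without CCAAT, with matches to the 3 motifs in capitals (ATTGG is CCAAT on the other strand). They are chr13:22041363-22041482 on the minus strand for Hist1h4i, chr13:23738687-23738806 on the plus strand for Hist1h1c and chr13:23571221-23571340 on the minus strand for Hist1h2ae.
Hist1h4i: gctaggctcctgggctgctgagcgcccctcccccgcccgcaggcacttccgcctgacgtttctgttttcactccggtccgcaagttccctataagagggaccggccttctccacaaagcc
Hist1h1c: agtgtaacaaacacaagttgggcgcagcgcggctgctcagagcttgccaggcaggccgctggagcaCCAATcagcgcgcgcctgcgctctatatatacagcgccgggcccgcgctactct
Hist1h2ae: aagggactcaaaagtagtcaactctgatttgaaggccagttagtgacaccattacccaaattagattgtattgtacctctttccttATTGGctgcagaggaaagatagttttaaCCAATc
Hist1h4i has none of the 3 motifs in this stretch, while Hist1h1c has CCAAT and Hist1h2ae has it on both strands. In the rest of the windows counted above, Hist1h4i has TATAAA and Hist1h2ae has TATAAA and ATTTGCAT. A match is a description of the letters and no evidence that a factor was bound.

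The sequence also limits which genes can be told apart. Near-identical transcripts of other genes were found for 57 of the 67 histone genes, that is for 1 of 6 H1, 17 of 18 H2A, 16 of 18 H2B, 12 of 12 H3 and 11 of 13 H4 genes, with a median of 8 other genes. In addition, 24 genes, among them all 18 H2A genes, are overlapped by another gene in the deposited coordinates, 7 of them on the same strand. How such reads were counted is not described in the sources used here, so values of single genes among them are uncertain. Neither a near-identical copy nor an overlapping gene was found for Hist1h1a, Hist1h1b, Hist1h1c, Hist1h1d, Hist1h1t, Hist1h2ba, Hist1h4d, Hist2h2be and Hist2h4.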

How the data were processed

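The 12 libraries (4 groups, 3 replicates each, 6 h) hold poly(A)-selected RNA of H9c2(2-1) cells, read in pairs of 150 bp. According to the submitters' processing notes, HISAT2 2.0.5 and mm10 (GRCm38) were used. The read counter and the annotation release are not given in the sources used here. The authors deposited FPKM per gene for 54345 genes. FPKM times gene length gave whole reads for 100.0% of the values (tolerance 0.01), which showed the reads per gene and a scaling between libraries that differs from the read totals.

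The test took the 25044 genes that exceeded an FPKM of 0 in 3 libraries or more, and was run on log2(FPKM + 1) in limma 3.58.1 (R 4.3.3) with an intensity trend, in 1 fit over the 4 groups with 6 comparisons. Fold changes are on this scale and understate the change of low genes. A gene was called at a Benjamini-Hochberg adjusted p under 0.05, two-sided, over all genes tested. The members and lists were chosen with earlier results of these data known. Named were, per type, the 2 genes with the highest mean log2(FPKM + 1), per comparison the 2 largest rises and 2 largest falls among the called histone genes, and 16 genes of histone metabolism, and any other gene is an example given after its values were seen. The depth was 16626514 to 19365119 reads on genes, and intervals (95% Wilson) and the floor of 3 reads cover counting error only. Transcripts were taken from GENCODE M21 and compared with BLAST 2.17.0 (at least 95% identity over 150 bases), and promoters from RefSeq. The stem-loop was searched in transcripts because no genome sequence was used here. Tables were handled with Python 3.11.15 and pandas 2.3.3.

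The scripts were tested on simulated data. Alternatives were an unadjusted p, a pseudocount of 0.1, a filter of FPKM of at least 1, no filter, a replicate block, a fit of the groups compared alone, TPM, summed reads, quantile normalization, voom on the recovered reads, and leaving out each library in turn.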

Additional observations from a re-analysis of the deposited data

How the results depend on the processing

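The counts of histone genes called moved with the scaling of the libraries, with the fit and with single libraries, and the share of all genes called, given in brackets, moved as well. In DOX against Unt, 24 genes were higher (18.6%), compared with 7 with TPM (4.44%) and 8 with summed reads (8.29%). There 0 were lower (19.9%), compared with 1 each with an unadjusted p (22.7%), a pseudocount of 0.1 (20.1%), a fit of the groups compared alone (23%), TPM (40.8%) and summed reads (33.2%). In D_DXZ against Unt, 20 were higher (15.9%), compared with 31 in a fit of the groups compared alone (19.4%), 6 with TPM (3.65%) and 11 with summed reads (7.64%). In D_MgHCF against Unt, 14 were higher (24.3%), compared with 25 with an unadjusted p (30.7%), 5 without a filter (7.67% of 54345 genes), 7 in a fit of the groups compared alone (13.4%), 24 with TPM (26.6%), 24 with summed reads (29.3%), 9 with quantile normalization (17.0%) and 22 with voom (28.5%). There 1 was lower (15.7%), compared with 2 with TPM (19.2%) and 3 with quantile normalization (18.5%). In D_DXZ against DOX, 3 were higher (4.56%) and 2 lower (4.97%) with an unadjusted p and 0 under the other alternatives. In D_MgHCF against DOX, 5 were higher (31.4%), compared with 8 with an unadjusted p (36.1%), 3 with a pseudocount of 0.1 (32.4%), 3 without a filter (11.4%), 1 in a fit of the groups compared alone (19.6%), 15 with TPM (53.9%), 12 with summed reads (49.4%), 1 with quantile normalization (18.5%) and 3 with voom (29.0%). There 11 were lower (20.1%), compared with 7 without a filter (8.45%), 6 in a fit of the groups compared alone (17.1%), 3 with TPM (6.75%), 4 with summed reads (9.59%) and 17 with quantile normalization (19.6%). In D_MgHCF against D_DXZ, 4 were higher (29.4%), compared with 2 without a filter (10.5%), 2 in a fit of the groups compared alone (17.3%), 10 with TPM (51.1%), 7 with summed reads (45.6%) and 1 with quantile normalization (18.3%). There 8 were lower (19.0%), compared with 3 with TPM (6.23%), 5 with summed reads (9.51%) and 16 with quantile normalization (19.3%). The cause was not tested.

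When each library was left out in turn, the counts moved as follows, with the range of the share of all genes in brackets. DOX against Unt had 18 to 30 genes higher (16.4% to 20.9%) and 0 to 1 lower (17.2% to 22.8%). D_DXZ against Unt had 11 to 28 higher (13.6% to 18.5%) and 0 lower (14.5% to 21.7%). D_MgHCF against Unt had 5 to 32 higher (16.3% to 33.4%) and 1 lower (12.6% to 18.7%). D_MgHCF against DOX had 2 to 17 higher (24.3% to 38.0%) and 7 to 12 lower (18.2% to 21.2%). D_MgHCF against D_DXZ had 2 to 17 higher (23% to 36.2%) and 6 to 11 lower (17.1% to 20.4%). D_DXZ against DOX had 0 in either direction (at most 0.012% higher and 0.024% lower). The values of 11 and 13 in D_DXZ against Unt came without Unt replicates 2 and 1, and the values of 32 and 17 without D_MgHCF replicate 3.

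Directions turned as follows for the genes named whose value was called with the deposited scaling or under the alternative. For Hist1h1c, DOX vs Unt, the log2 fold change was -0.51 with TPM and -0.10 with summed reads. For H2afz, DOX vs Unt, it was -0.28 with TPM and -0.69 with quantile normalization, and for H2afz, D_DXZ vs Unt, -0.35 and -0.67. With quantile normalization it was 0.045 for H2afz, D_MgHCF vs DOX, and 0.029 for H2afz, D_MgHCF vs D_DXZ. For H3f3b, DOX vs Unt, it was -0.27 with TPM and -0.63 with quantile normalization, and for H3f3b, D_DXZ vs Unt, -0.21 with the latter. For H3f3b, D_MgHCF vs DOX, it was 0.76, 0.51 and 1.17 with TPM, summed reads and quantile normalization, and for H3f3b, D_MgHCF vs D_DXZ, 0.41, 0.15 and 0.75. For Pcna, DOX vs Unt, it was -0.0087 with TPM and -0.27 with quantile normalization, and for Pcna, D_DXZ vs Unt, -0.16 with the latter. For Casp8ap2, D_MgHCF vs D_DXZ, it was 0.84 with TPM and 0.55 with summed reads. For Slbp, D_MgHCF vs D_DXZ, it was 0.78 with TPM, and for Zfp473, D_MgHCF vs Unt, -0.016 with quantile normalization.

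As a set, libraries with the same replicate number did not deviate together (correlations of deviations -0.314 to 0.306, median 0.0174, 18 pairs), so the numbers are not taken to pair them. Between DOX and D_DXZ, however, the same-number pairs were at 0.306, 0.0334 and 0.220, and the other pairs at -0.309 to 0.149. Between D_DXZ and D_MgHCF the same-number pairs were at -0.314, 0.0367 and -0.1025. With the replicate number as a block, 22 genes were higher in DOX against Unt (18.3% of all genes) and 17 in D_DXZ against Unt (15.5%). With this block, 12 were higher in D_MgHCF against Unt (23%) and 4 in D_MgHCF against DOX (30.5%), with 11 lower in the last (19.8%). Of the 59 histone genes, 15 changed sign with summed reads, 19 with TPM and 11 with quantile normalization in D_MgHCF against DOX, among them uncalled genes such as Hist1h3g and Hist1h3c. Of those called with the deposited scaling, only Hist1h4d did so there, at -0.53 and, with TPM, 0.055. Depth limits most histone genes, since the median gene has a mean FPKM of 0.662.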

Other observations

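Of the 70 genes with a histone cluster symbol, 3 are annotated as pseudogenes and were in no comparison. Hist1h2al had an FPKM of 0.352, 0 and 0.604 in Unt, 2.53, 0.920 and 0.510 in DOX, 2.92, 1.13 and 1.33 in D_DXZ and 1.69, 1.27 and 0.961 in D_MgHCF. Its DOX values overlapped those of Unt, while those of D_DXZ and D_MgHCF lay above Unt. Hist1h2aj had 0, 0.119 and 0 in Unt and 3.79, 1.79 and 0.810 in D_MgHCF. Hist3h2bb-ps was at 0 in all Unt libraries and at 0.307, 0.422 and 0.964 in D_MgHCF. These values were not tested.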
